A study of Mus musculus with 16 samples.

Results

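The Hox cluster genes are the rows of the deposited expression table whose symbol is Hoxa, Hoxb, Hoxc or Hoxd followed by a number. The rule found 38 genes among 18990 rows, 11 in cluster A on chromosome 6, 10 in cluster B on chromosome 11, 9 in cluster C on chromosome 15 and 8 in cluster D on chromosome 2. Of the 39 Hox genes of the mouse annotation used here (GENCODE vM21, build mm10), *Hoxd1* was not analysed here. The data were 16 RNA sequencing libraries of primary mouse embryonic fibroblasts (strain BL6, wild-type, passage 2) in the first days of reprogramming. All cells carried the doxycycline-inducible tet-STEMCCA lentivirus for *Oct4*, *Sox2*, *Klf4* and *c-Myc* together with rtTA, were reverse transfected with 40 nM of pooled siRNAs, and were then kept with doxycycline in a medium with a GSK3 inhibitor, an Alk5 inhibitor, ascorbic acid and LIF. The siRNA was non-targeting (nt control) or directed against *Wdr5* (siWdr5), *Brca1* (siBrca1) or *Bard1* (siBard1), and RNA was taken at day 3 and day 6, with 2 libraries for each of the 8 groups. The nt control therefore had the same cassette, doxycycline and medium as the knockdowns, and each library is a whole culture of cells that do and do not reprogram.

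Hox genes encode homeodomain transcription factors that give cells their position along the body axis and, in limbs, from the shoulder or hip to the digits. Each cluster is laid out in the order in which its genes are used, so that genes at one end (low paralog numbers, anterior) act toward the head and those at the other end (high numbers, posterior) toward the tail and the tips of the limbs. Fibroblasts keep much of the Hox pattern of the site they came from, and this pattern is held in part by 2 opposing systems of chromatin marks. Trithorax complexes, of which WDR5 is a core subunit, place methyl groups on lysine 4 of histone H3 at active Hox genes, while Polycomb complexes mark silent ones. BRCA1 and BARD1 form a heterodimer with ubiquitin ligase activity that acts in DNA repair and in transcription.

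Levels are given as CPM (read counts scaled to library size, 2 to the power of the deposited log2 CPM) and, where genes are set against each other, as CPM per kilobase of exon. Libraries held 11169738 to 26832534 reads, and 3 reads, the floor used here, lay at 0.115 to 0.260 CPM. The genes were divided into anterior (groups 1 to 3, 7 genes), central (groups 4 to 8, 15 genes) and posterior (groups 9 to 13, 16 genes). A mean log2 CPM of at least 0 was required for testing, which 33 of the 38 genes met (11 in cluster A, 8 in B, 8 in C and 6 in D). *Hoxb1*, *Hoxb13*, *Hoxc12*, *Hoxd3* and *Hoxd12* fell under it. In the text, rose and fell mean an adjusted p below 0.05 by limma over all 14028 genes tested, log2 changes carry their standard error (SE), and each knockdown is compared with the nt control of its day, so the comparisons of a day share their 2 control libraries. Because the libraries are of whole cultures, fewer cells of a type and less RNA per cell cannot be told apart.

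The siRNA targets were read first. At day 3 *Wdr5* stood at 132 and 130 CPM in the nt control and at 50.6 and 55.3 CPM in siWdr5, a log2 change of −1.31 (SE 0.10, limma adjusted p = 3.02e-06). *Brca1* stood at 82.4 and 78.0 CPM against 37.5 and 19.4 CPM in siBrca1 (−1.57, SE 0.22, limma adjusted p = 7.9e-05), and *Bard1* at 30.5 and 29.1 against 18.0 and 20.8 CPM in siBard1 (−0.62, SE 0.19, limma adjusted p = 0.0422). Other targets fell as well, *Wdr5* in siBrca1 (−0.87) and siBard1 (−0.48), *Brca1* in siWdr5 (−0.86), and *Bard1* in siWdr5 (−1.03) and siBrca1 (−1.38). At day 6 no target differed from the nt control, with log2 changes of −0.27 for *Wdr5* in siWdr5, 0.01 for *Brca1* in siBrca1 and 0.11 for *Bard1* in siBard1 (limma adjusted p = 0.189, 0.988 and 0.853), so these transcripts do not check the labels of the day 6 libraries.

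The sequences in front of 4 of the genes described below are shown because *Hoxa13* and *Hoxd13*, paralogs of group 13, moved in opposite directions in siBrca1, and because *Hoxb4*, *Hoxb8* and *Hoxd13* are the 3 genes whose siBrca1 change differed between day 3 and day 6. Each runs from 250 bases before to 50 bases after the RefSeq transcript start (build GRCm38.p6), on the strand of the gene, with every CG dinucleotide in capitals. They cover chr6:52260831-52261130 (minus strand) for *Hoxa13*, chr2:74667975-74668274 (plus strand) for *Hoxd13*, chr11:96281655-96281954 (plus strand) for *Hoxb8* and chr11:96318017-96318316 (plus strand) for *Hoxb4*.
Hoxa13: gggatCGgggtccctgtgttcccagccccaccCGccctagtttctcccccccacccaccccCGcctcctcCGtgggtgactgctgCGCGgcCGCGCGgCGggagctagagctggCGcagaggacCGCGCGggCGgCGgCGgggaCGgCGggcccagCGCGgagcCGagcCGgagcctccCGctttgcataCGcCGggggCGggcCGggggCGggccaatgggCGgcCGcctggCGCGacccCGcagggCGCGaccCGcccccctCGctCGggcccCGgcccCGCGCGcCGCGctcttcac
Hoxd13: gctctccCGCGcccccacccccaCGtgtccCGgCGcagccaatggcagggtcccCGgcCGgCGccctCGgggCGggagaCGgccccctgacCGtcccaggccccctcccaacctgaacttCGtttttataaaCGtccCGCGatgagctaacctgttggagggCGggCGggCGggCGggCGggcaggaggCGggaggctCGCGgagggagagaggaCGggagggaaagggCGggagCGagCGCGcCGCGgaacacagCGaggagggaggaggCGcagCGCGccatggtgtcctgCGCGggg
Hoxb8: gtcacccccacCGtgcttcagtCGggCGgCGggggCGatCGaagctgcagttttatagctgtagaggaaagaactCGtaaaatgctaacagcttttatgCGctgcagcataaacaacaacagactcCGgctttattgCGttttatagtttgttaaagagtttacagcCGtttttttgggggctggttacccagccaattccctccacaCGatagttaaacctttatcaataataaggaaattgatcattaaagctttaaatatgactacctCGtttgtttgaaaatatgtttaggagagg
Hoxb4: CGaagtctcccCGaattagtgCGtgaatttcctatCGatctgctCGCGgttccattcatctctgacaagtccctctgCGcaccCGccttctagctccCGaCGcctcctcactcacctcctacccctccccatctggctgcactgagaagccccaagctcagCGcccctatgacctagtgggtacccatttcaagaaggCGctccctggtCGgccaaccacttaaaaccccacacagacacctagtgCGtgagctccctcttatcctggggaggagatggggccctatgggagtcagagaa

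The *Hoxa13* and *Hoxd13* promoters held 45 and 37 CG dinucleotides in 300 bases and those of *Hoxb8* and *Hoxb4* 13 and 14, against a median of 7 over all 32851 promoters of the same length in the table. The table held 23 promoters of 21 of the 38 genes, with a median of 14. The letters TGATNNAT, a form of the joint site that HOX proteins bind with their PBX partners, were found on either strand in 4 of the 23 Hox promoters (*Hoxa2*, *Hoxb1*, *Hoxb8* and one of *Hoxd11*) and in 8.85% of all promoters. A match is a description of the letters and not of binding.

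The clusters also encode microRNAs that act on Hox transcripts, and their mature forms are shown with the seed (bases 2 to 8) in capitals, as given by RefSeq (GRCm38.p6). The miR-196 forms share a seed, and so do the miR-10 forms.
mmu-miR-196a-5p: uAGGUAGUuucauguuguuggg
mmu-miR-196b-5p: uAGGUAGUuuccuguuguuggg
mmu-miR-10a-5p: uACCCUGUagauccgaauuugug
mmu-miR-10b-5p: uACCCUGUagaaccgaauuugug

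The genes for miR-196a lie in cluster B (chr11:96265187-96265208, between *Hoxb9* and *Hoxb13*) and in cluster C (chr15:102973365-102973386, between *Hoxc10* and *Hoxc9* and inside the annotated span of *Hoxc5*), miR-196b in cluster A (chr6:52230129-52230150, inside the span of *Hoxa9*), miR-10a in cluster B (chr11:96317186-96317208) and miR-10b in cluster D (chr2:74726074-74726096). *Hoxb8*, a known target that miR-196 cleaves, carries a 3′ UTR site of 22 bases at chr11:96284888-96284909 (plus strand, GRCm38), shown 5′ to 3′ with the bases opposite the seed in capitals.
Hoxb8 site: cccaacaacatgaaACTGCCTa

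All 22 bases of this site pair with miR-196a, 21 as Watson-Crick pairs and 1, inside the seed, as a G:U pair. A perfect complement of the miR-196 seed was found in the 3′ UTRs of *Hoxa4*, *Hoxa5*, *Hoxa7* (4 matches), *Hoxa9*, *Hoxb1*, *Hoxb6*, *Hoxb7* and *Hoxc8* (2 matches), and that of the miR-10 seed in those of *Hoxa3* and *Hoxb3*. The libraries did not measure mature microRNAs, and the row for the miR-196a hairpin gene of cluster B, *Mir196a-1*, changed by 0.43 (SE 0.29) in siWdr5, 0.18 in siBrca1 and 0.24 in siBard1 at day 3 (limma adjusted p = 0.271, 0.640 and 0.607).

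In the nt control at day 3 the 38 genes together made up 225 and 224 CPM, with 20.1% in cluster D, 24.3% in B, 26.6% in A and 29.1% in C. Cluster A held 59.8 and 59.4 CPM, cluster B 56.1 and 53.0, cluster C 63.7 and 67.0 and cluster D 45.2 and 44.9. By position, anterior genes held 6.98% of the Hox total (6.90% and 7.07% in the libraries), central genes 45.5% and posterior genes 47.5%.

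*Hoxd13*, the digit and genital gene at the posterior end of cluster D, was the highest member per kilobase at 11.1 CPM per kb, and was followed by *Hoxb9* (8.13), *Hoxc6* (8.04), *Hoxc8* (5.51) and *Hoxa10* (4.05), which pattern the trunk and, for *Hoxa10* and *Hoxc8*, also the limb or its motor nerves. *Hoxb9* and *Hoxc6* were not separated by the spread of their libraries, nor were *Hoxa10* and *Hoxb7* (3.84), whereas *Hoxd13* lay above all others in both libraries. The genes ranked 6 to 33 lay between 3.84 and 0.465 CPM per kb. The lowest levels were those of *Hoxd12*, *Hoxc12*, *Hoxb13*, *Hoxd3* and *Hoxb1* (0.388 to 0.0710 CPM per kb), of which all but *Hoxd12* had 0 to 5 reads in either library. Among the group 13 genes, at the posterior end of each cluster, levels ran from the highest of all (*Hoxd13*) through 1.63 CPM per kb (*Hoxa13*) and 0.550 (*Hoxc13*) to 0.105 (*Hoxb13*). Some values may hold reads of neighbours, since 62.3% of the exon bases of *Hoxd3* and 52.3% of those of *Hoxd4* are shared on the same strand, and since 52.9% of *Hoxb3*, 35.0% of *Hoxa11* and 25.4% of *Hoxa3* face a transcript on the other strand and the strand setting of the counting is not given in the sources used here. *Hoxc10* and *Hoxc5* share 8.70% and 5.37% of their exon bases with each other on the same strand. No exon base of *Hoxb9*, *Hoxc6*, *Hoxc8*, *Hoxc9*, *Hoxc13*, *Hoxa13*, *Hoxb4*, *Hoxb8*, *Hoxd8* or *Hoxd13* is shared. Of the 43-base windows of the transcripts, at most 1.20% (*Hoxa6*) also occur in a Hox gene elsewhere.

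**Figure D1:**
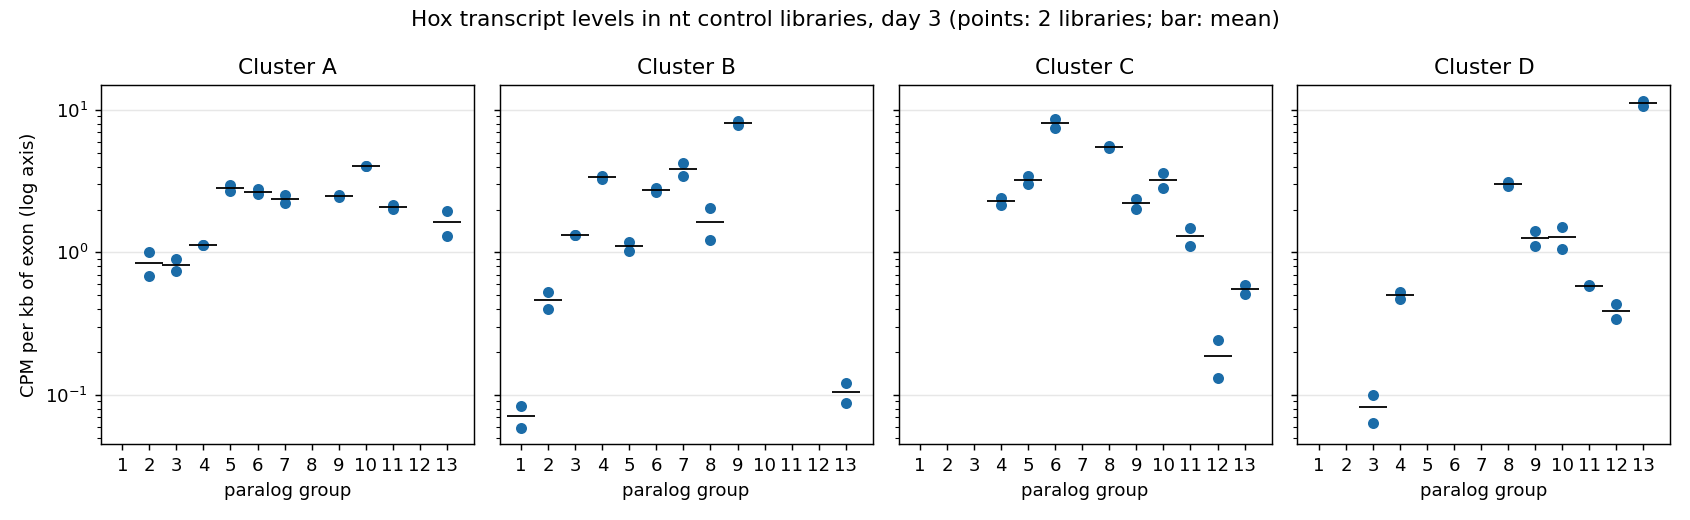
Transcript levels of the single Hox genes described here in the nt control at day 3 in CPM per kilobase of exon (log axis) against paralog group, 1 panel per cluster; points are the 2 libraries and bars their mean. *Hoxd13* (11.1 CPM per kb), *Hoxb9* (8.13) and *Hoxc6* (8.04) stood highest, and *Hoxb1*, *Hoxb13*, *Hoxc12* and *Hoxd3* lowest.

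The Hox total was higher in siWdr5 and siBrca1 than in the nt control, and the difference lay mainly in clusters B and C. The sum over all 38 genes was 297 and 296 CPM in siWdr5, 288 and 309 in siBrca1 and 258 and 238 in siBard1, against 225 and 224 CPM in the nt control at day 3. Cluster C stood at 65.3 ± 2.34 CPM (SD, n = 2) in the nt control, 111 ± 1.95 in siWdr5, 108 ± 4.17 in siBrca1 and 79.0 ± 2.56 in siBard1. Cluster B stood at 54.5 ± 2.18 CPM in the nt control, 83.2 ± 0.372 in siWdr5, 83.5 ± 10.7 in siBrca1 and 58.4 ± 0.759 in siBard1. Cluster A stood between 59.6 ± 0.283 and 68.1 ± 2.16 CPM in these groups. Cluster D stood at 45.1 ± 0.218 CPM in the nt control, 33.8 ± 0.725 in siWdr5, 42.2 ± 2.51 in siBrca1 and 44.6 ± 5.57 in siBard1. In siWdr5 1 of the 6 tested cluster D genes fell, *Hoxd13*, which alone stood at 27.6 CPM in the nt control. These sums were not tested.

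**Figure D2:**
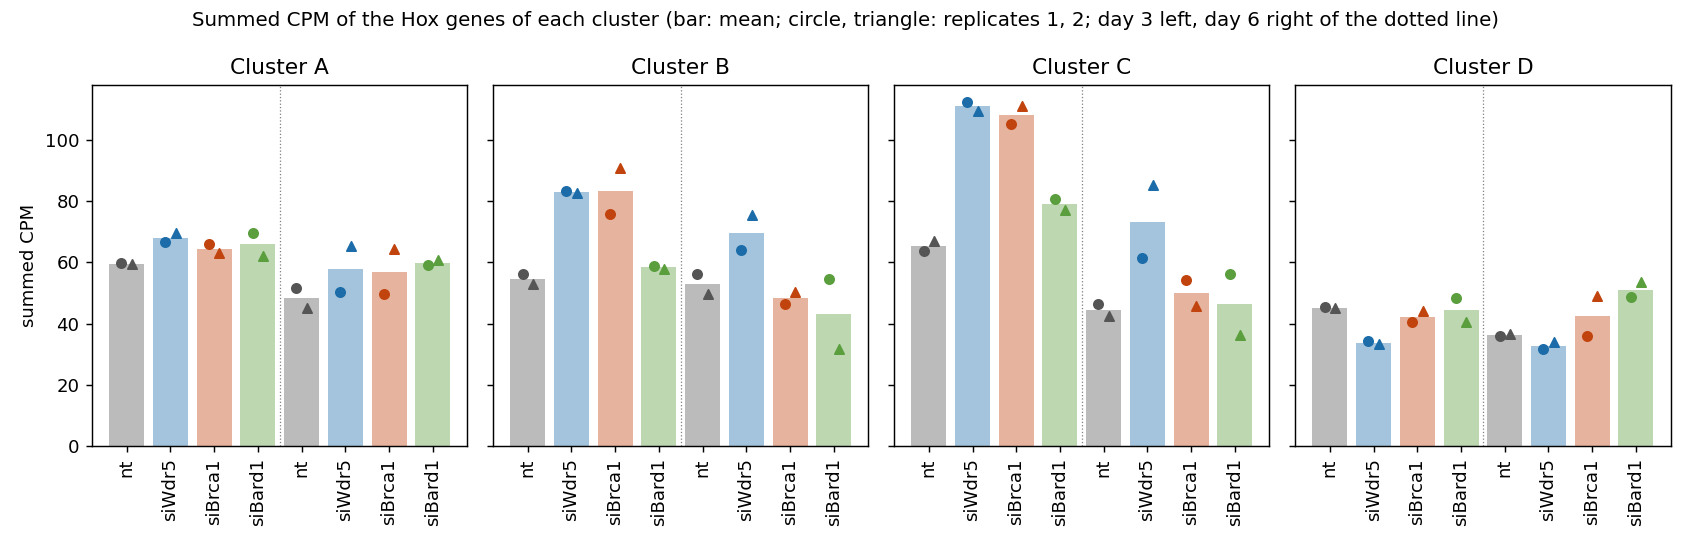
Summed CPM of the Hox genes of clusters A to D in all 16 libraries; bars are means of 2 libraries, circles replicate 1 and triangles replicate 2. Cluster C stood at 65.3 CPM in the nt control, 111 in siWdr5 and 108 in siBrca1 at day 3, cluster D was lower in siWdr5 (33.8 against 45.1), and the siBard1 libraries of day 6 lay far apart in clusters B and C.

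In siWdr5 at day 3, 9 of the 33 genes tested rose and 1 fell. The 9 were *Hoxb5*, *Hoxb6*, *Hoxb8* and *Hoxb9* and *Hoxc6*, *Hoxc8*, *Hoxc9*, *Hoxc10* and *Hoxc13*, and the gene that fell was *Hoxd13*. They are 27.3% of the genes tested, against 18.3% of all 14028 genes that rose, while 3.03% fell against 16.8% of all genes. The risers were 5 of 8 genes of cluster C (62.5%) and 4 of 8 of cluster B (50.0%), and none of the 11 genes of cluster A or the 6 of cluster D. The study's own rule, which also asks for more than a 2-fold change, left *Hoxc8* alone (4.1% of all genes passed it upward). Median log2 changes were 0.75 in cluster C, 0.47 in B, 0.22 in A and −0.28 in D, against −0.04 over all genes. All 8 genes of cluster C had a positive estimate. By position the medians were 0.00 for anterior, 0.27 for central and 0.22 for posterior genes, and the risers were 0 of 5, 5 of 15 and 4 of 13.

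**Figure D3:**
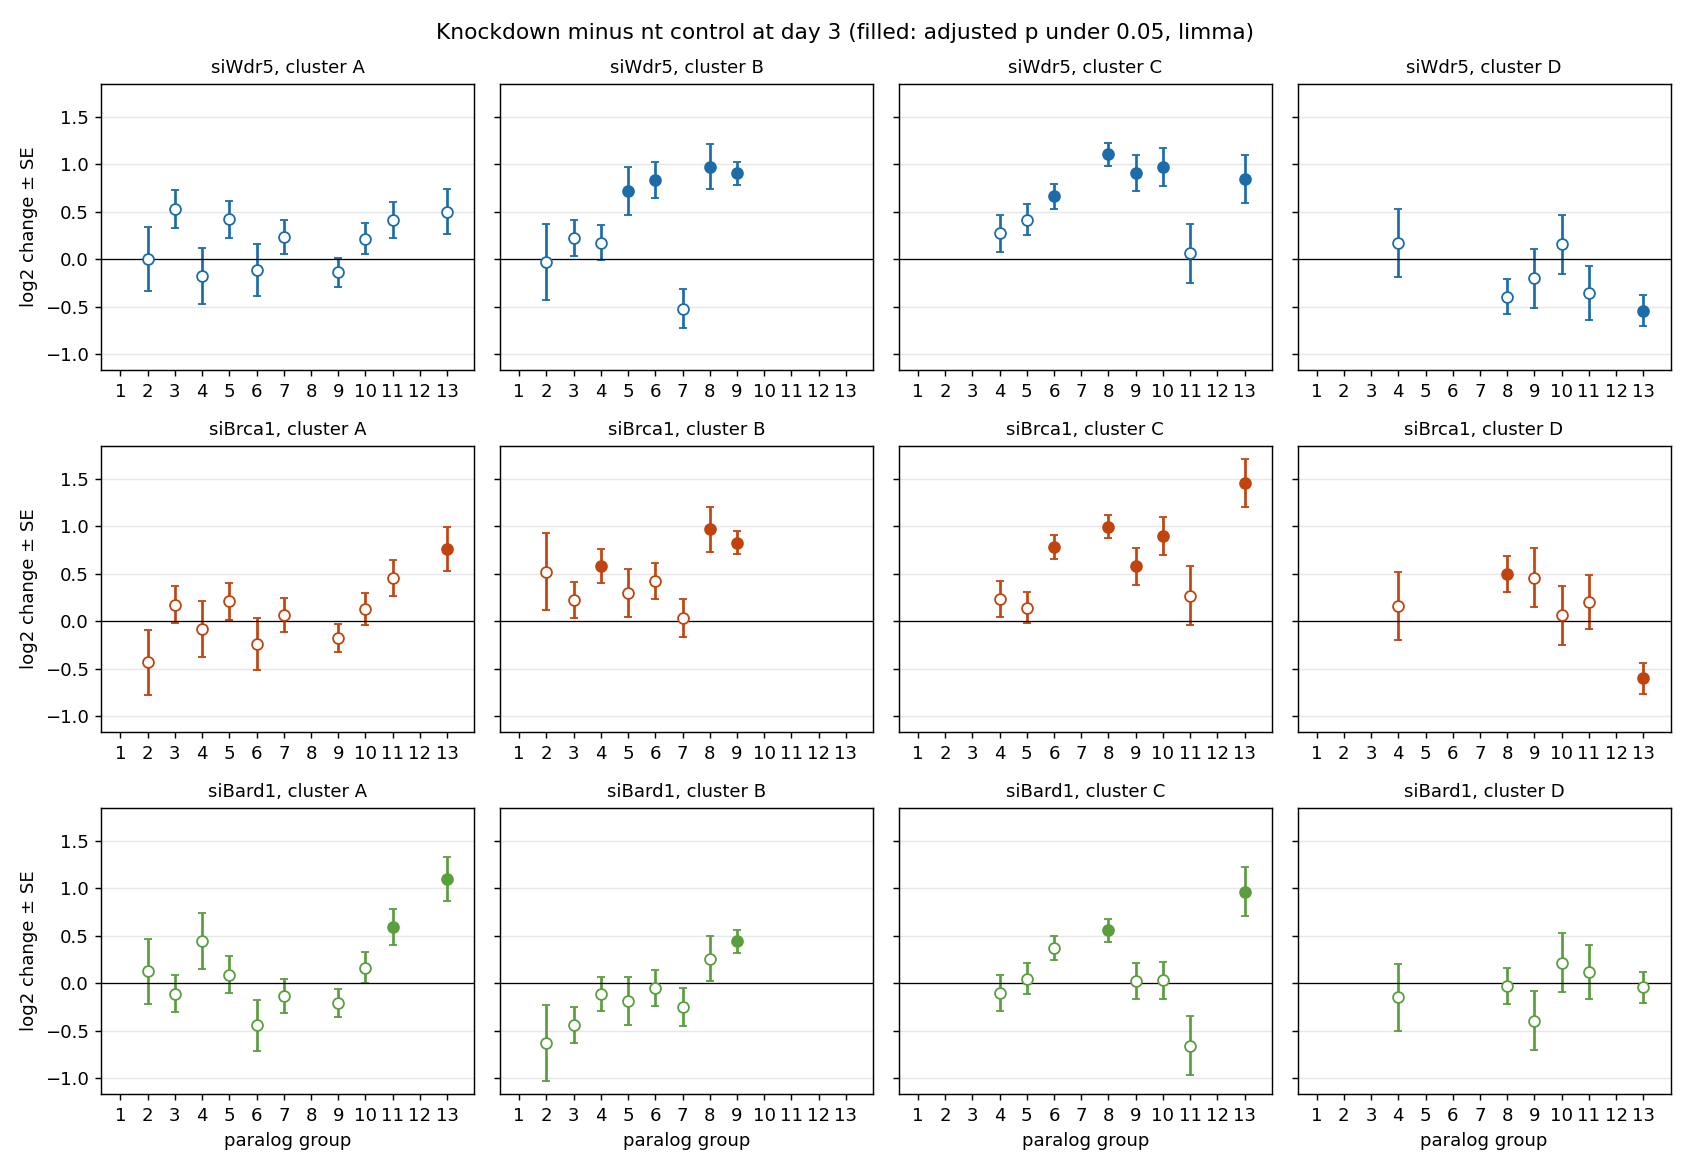
Log2 change against the nt control at day 3 (± SE) of the tested Hox genes described here, against paralog group, by cluster (columns) and knockdown (rows); filled points have an adjusted p below 0.05 by limma. Filled points lie above 0 in clusters B and C for siWdr5 and siBrca1, and *Hoxd13* lies below 0 in both; in siBard1 the filled points are *Hoxa11*, *Hoxa13*, *Hoxb9*, *Hoxc8* and *Hoxc13*.

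Cluster C held the largest change of both siWdr5 and siBrca1. *Hoxc8*, which patterns the lower neck and chest and the motor neurons of the forelimb, stood at 15.8 and 15.4 CPM in the nt control, 33.2 and 33.9 in siWdr5, 29.8 and 32.4 in siBrca1 and 22.1 and 23.7 in siBard1. All 6 knockdown libraries lay above both control libraries, with those of siBard1 between the control and the other knockdowns. The log2 change was 1.10 (SE 0.12, limma adjusted p = 2.81e-05) in siWdr5, 0.99 (SE 0.12, limma adjusted p = 3.47e-05) in siBrca1 and 0.56 (SE 0.12, limma adjusted p = 0.0101) in siBard1. At day 3 both knockdown libraries lay above both controls in 34.9% of all genes in siWdr5, 38.8% in siBrca1 and 30.2% in siBard1. Below both lay 39.6%, 38.3% and 33.7%. Of the 33 Hox genes, 19, 18 and 7 lay above and 7, 4 and 8 below.

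*Hoxc6*, a gene of the chest region, stood at 18.0 and 20.7 CPM in the nt control, 30.7 and 30.3 in siWdr5, 31.9 and 34.6 in siBrca1 and 26.3 and 23.8 in siBard1. No knockdown library overlapped the control, and the gene rose in siWdr5 (0.66, SE 0.13, limma adjusted p = 0.00156) and siBrca1 (0.78, SE 0.13, limma adjusted p = 0.000258). The siBard1 change of 0.37 did not pass (limma adjusted p = 0.0652). *Hoxc9*, which marks the chest levels of the spinal cord, stood at 5.81 and 4.93 CPM in the nt control, 10.3 and 9.76 in siWdr5, 7.73 and 8.23 in siBrca1 and 6.17 and 4.81 in siBard1. Its siBard1 libraries overlapped the control, and the changes were 0.91 (limma adjusted p = 0.00268) in siWdr5 and 0.58 (limma adjusted p = 0.0235) in siBrca1.

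*Hoxc10*, used at the level of the loins and in the hindlimb, stood at 5.41 and 6.92 CPM in the nt control, 11.5 and 12.5 in siWdr5, 9.80 and 13.3 in siBrca1 and 6.73 and 5.80 in siBard1. It rose by 0.97 (SE 0.20, limma adjusted p = 0.00232) in siWdr5 and by 0.90 (SE 0.20, limma adjusted p = 0.00216) in siBrca1, and its siBard1 libraries lay within the range of the control. *Hoxc13*, known from hair, nails and the tail, was low, at 1.26 and 1.45 CPM in the nt control, 2.38 and 2.46 in siWdr5, 3.82 and 3.58 in siBrca1 and 2.80 and 2.47 in siBard1. Every knockdown library exceeded the control, most in siBrca1, with changes of 0.84 (SE 0.25, limma adjusted p = 0.0199), 1.46 (SE 0.25, limma adjusted p = 0.000405) and 0.96 (SE 0.25, limma adjusted p = 0.0237) in siWdr5, siBrca1 and siBard1. Of the other genes of the cluster, *Hoxc4*, *Hoxc5* and *Hoxc11* did not pass in any of the 3 comparisons. *Hoxc12*, under the filter, had 0 and 2 reads in the nt control and 4 to 11 reads in the 6 knockdown libraries.

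In cluster B the genes that moved lay between groups 4 and 9. *Hoxb9*, which acts in the chest skeleton and in the mammary gland, stood at 20.3 and 21.5 CPM in the nt control, 38.7 and 39.6 in siWdr5, 34.9 and 39.4 in siBrca1 and 29.4 and 27.5 in siBard1. It rose in each, by 0.90 (SE 0.12, limma adjusted p = 0.00011), 0.83 (SE 0.12, limma adjusted p = 0.000112) and 0.44 (SE 0.12, limma adjusted p = 0.027), again with siBard1 between the control and the others. *Hoxb8*, a regulator of myeloid progenitors and of spinal sensory neurons, stood at 5.41 and 3.22 CPM in the nt control, 7.72 and 8.70 in siWdr5, 7.44 and 8.93 in siBrca1 and 5.18 and 4.81 in siBard1. Its control libraries differed from each other by more than those of most members, the siBard1 values fell between them, and the changes were 0.97 in both siWdr5 (SE 0.24, limma adjusted p = 0.00641) and siBrca1 (SE 0.24, limma adjusted p = 0.00428).

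*Hoxb6*, a trunk and limb gene, stood at 5.55 and 5.21 CPM in the nt control, 9.16 and 10.0 in siWdr5, 6.41 and 8.08 in siBrca1 and 4.83 and 5.59 in siBard1. It rose in siWdr5 (0.83, SE 0.19, limma adjusted p = 0.00469), while the siBrca1 change of 0.42 did not pass (limma adjusted p = 0.0868). *Hoxb5*, used in the gut wall and in the placement of the shoulder, stood at 3.30 and 2.87 CPM in the nt control, 5.42 and 4.72 in siWdr5, 3.09 and 4.64 in siBrca1 and 2.94 and 2.47 in siBard1. Its siBrca1 libraries overlapped the control, and it rose in siWdr5 (0.72, SE 0.25, limma adjusted p = 0.0409). *Hoxb7* ran against its neighbours in siWdr5, at 4.18 and 4.05 CPM against 6.53 and 5.33, a change of −0.52 that did not pass (limma adjusted p = 0.0586).

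The posterior ends of clusters A and D differed from each other. *Hoxd13* stood at 28.6 and 26.6 CPM in the nt control, 18.9 and 19.0 in siWdr5, 20.9 and 15.8 in siBrca1 and 30.5 and 23.5 in siBard1. It was the gene that fell in siWdr5 (−0.54, SE 0.16, limma adjusted p = 0.0186) and in siBrca1 (−0.60, SE 0.16, limma adjusted p = 0.0073), with the siBard1 libraries on either side of the control. *Hoxa13*, its paralog in hands, feet and the urogenital tract, stood at 4.82 and 3.22 CPM in the nt control, 6.23 and 4.98 in siWdr5, 6.70 and 6.61 in siBrca1 and 9.67 and 7.36 in siBard1. All knockdown libraries were above both controls, and the gene rose in siBrca1 (0.76, SE 0.23, limma adjusted p = 0.016) and most in siBard1 (1.10, SE 0.23, limma adjusted p = 0.00825).

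*Hoxa11*, a gene of the forearm, lower leg and uterus, stood at 4.62 and 4.93 CPM in the nt control, 5.80 and 6.97 in siWdr5, 6.26 and 6.82 in siBrca1 and 7.36 and 7.05 in siBard1. It rose in siBard1 (0.59, SE 0.19, limma adjusted p = 0.0494), and the changes of 0.41 in siWdr5 and 0.45 in siBrca1 did not pass (limma adjusted p = 0.102 and 0.0619), although all 6 knockdown libraries lay above the control. *Hoxa11os*, the antisense transcript that covers part of it, changed by 0.12 (SE 0.30, limma adjusted p = 0.831) in siBard1. *Hoxd8* and *Hoxb4* were the remaining genes that passed, both in siBrca1, by 0.50 (SE 0.19, limma adjusted p = 0.0426) and 0.58 (SE 0.18, limma adjusted p = 0.0181).

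**Figure D4:**
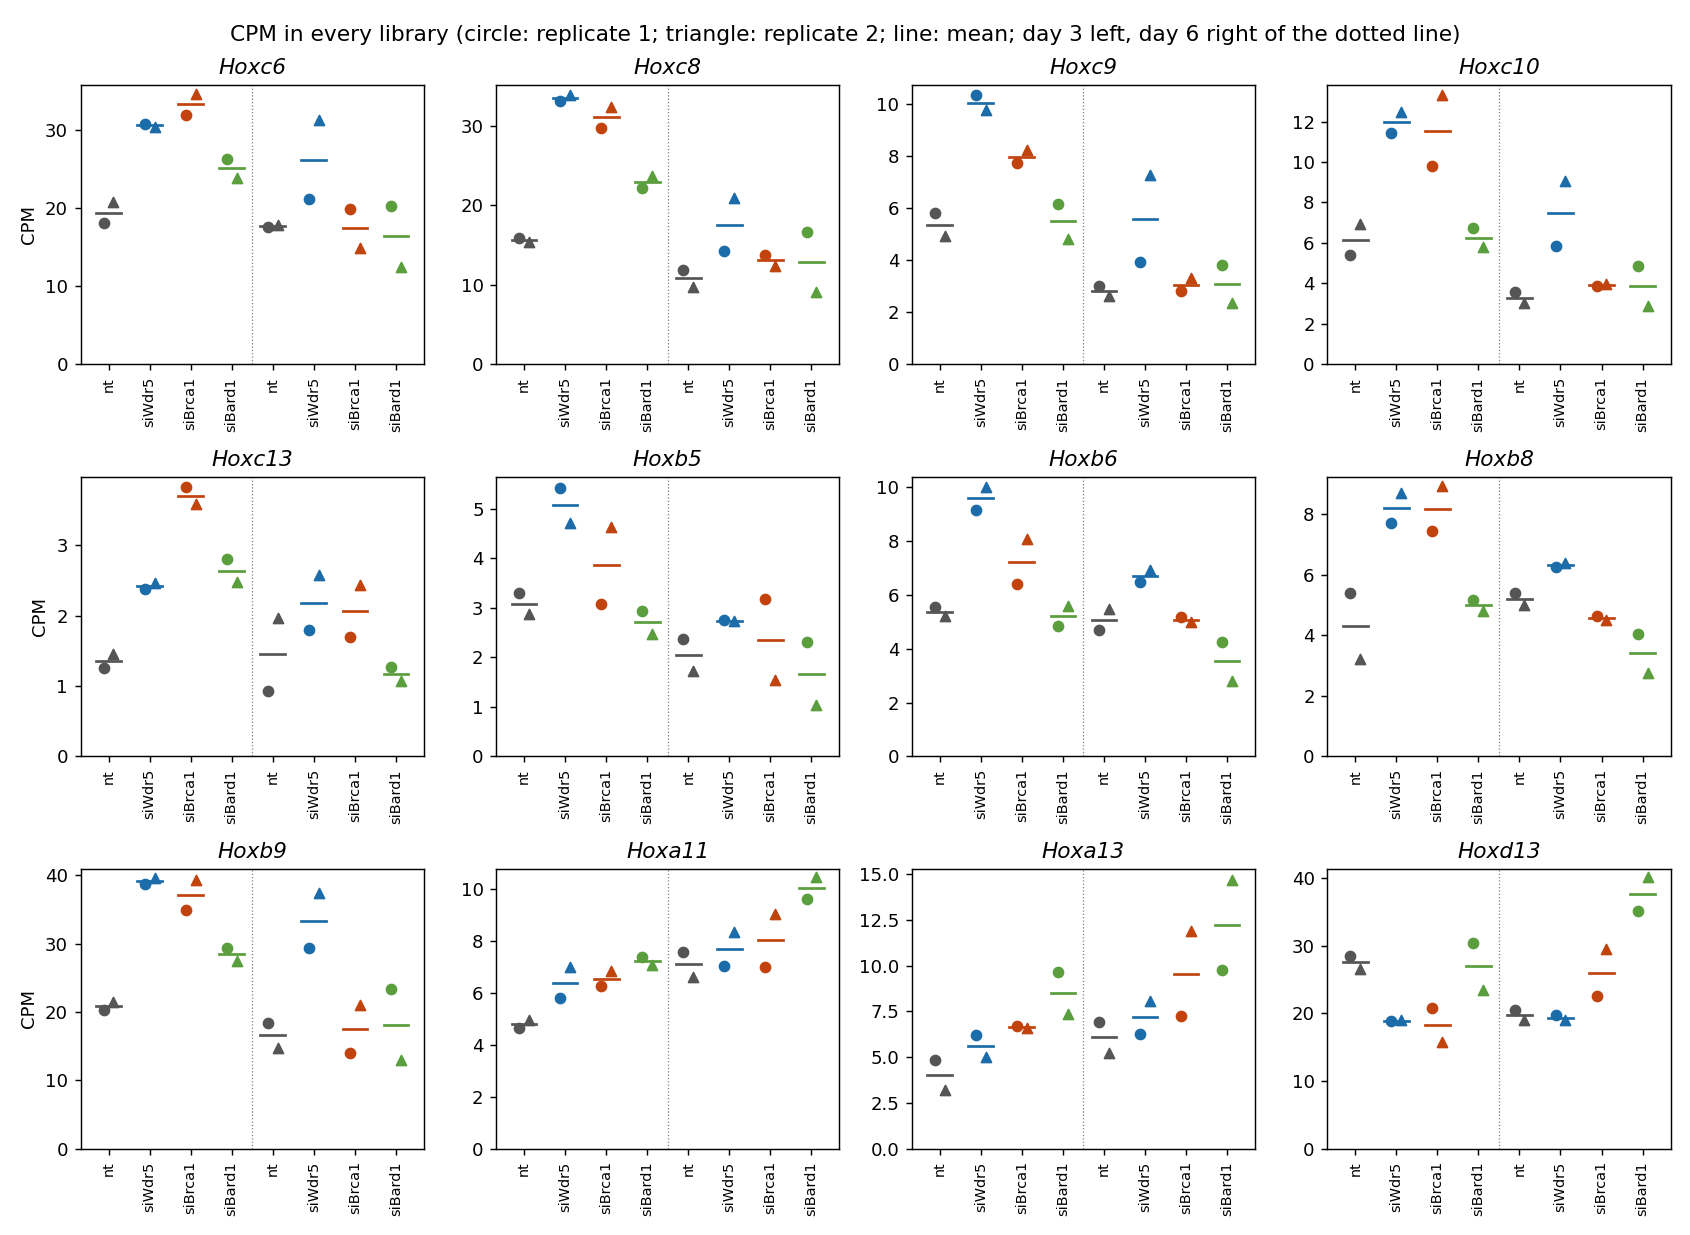
CPM in every library of the 12 Hox genes with the largest changes among those that passed in a knockdown at day 3; circles are replicate 1, triangles replicate 2, lines the group mean, and day 6 stands right of the dotted line. *Hoxc8* and *Hoxb9* separate siWdr5 and siBrca1 from the nt control at day 3, *Hoxd13* is lower in both, and *Hoxa13* is highest in siBard1.

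In siBrca1 at day 3, 10 genes rose and 1 fell of 33. The 10 were *Hoxa13*, *Hoxb4*, *Hoxb8*, *Hoxb9*, *Hoxc6*, *Hoxc8*, *Hoxc9*, *Hoxc10*, *Hoxc13* and *Hoxd8*, 30.3% of the genes tested against 25.4% of all genes, a share near the background, and the fall of *Hoxd13* was 3.03% against 21.8%. Within the clusters 5 of 8 genes of C rose (62.5%), 3 of 8 of B, 1 of 11 of A and 1 of 6 of D. Medians were 0.68 in cluster C, 0.47 in B, 0.18 in D and 0.06 in A, against 0.00 over all genes, and that of A turned to −0.00061 with quantile normalization. All 8 genes of B and all 8 of C had positive estimates. Posterior genes had a median of 0.45, central of 0.23 and anterior of 0.17. *Hoxc13* was the gene that passed the 2-fold rule (7.12% of all genes did so upward).

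In siBard1 at day 3, 5 genes rose (*Hoxa11*, *Hoxa13*, *Hoxb9*, *Hoxc8* and *Hoxc13*), 15.2% of those tested against 8.67% of all genes, and none fell by limma (5.87% of all genes did). By limma-voom on the recovered reads none fell either, and 1 gene with a negative estimate, *Hoxb3* (−0.44), had an unadjusted p below 0.05 by limma, among 7 of 33 Hox genes with such a p (21.2%, against 31.3% of all genes). Of the 5 risers 4 were posterior, of 13 posterior genes tested, and the medians were 0.12 for posterior, −0.05 for central and −0.11 for anterior genes. Cluster medians lay between −0.15 (B) and 0.09 (A), and *Hoxa13* passed the 2-fold rule (1.58% of all genes did so upward). The counts of the 3 knockdowns rest on the same 2 control libraries and are not independent of each other.

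Several of these calls depended on single libraries. In siWdr5 at day 3, leaving out siWdr5 replicate 2 took *Hoxb5*, *Hoxb6*, *Hoxb8*, *Hoxc13* and *Hoxd13* above the threshold (limma adjusted p 0.0515 to 0.0995), nt replicate 2 took *Hoxb5*, *Hoxb8*, *Hoxc13* and *Hoxd13* (0.0584 to 0.201), and nt replicate 1 or siWdr5 replicate 1 took *Hoxb5*, *Hoxc13* and *Hoxd13* (0.0821 to 0.212). *Hoxb9*, *Hoxc6*, *Hoxc8*, *Hoxc9* and *Hoxc10* passed under every alternative fitted to them. In siBrca1, leaving out nt replicate 2 took *Hoxa13*, *Hoxb4*, *Hoxb8*, *Hoxc9* and *Hoxd8* (0.067 to 0.198), siBrca1 replicate 2 took *Hoxb4*, *Hoxc9* and *Hoxd8* (0.0662 to 0.339), and nt replicate 1 took *Hoxb4*, *Hoxd8* and *Hoxd13* (0.0629 to 0.119). *Hoxb9*, *Hoxc6*, *Hoxc8*, *Hoxc10* and *Hoxc13* passed under every alternative fitted to them. In siBard1 none of the 5 held throughout, since leaving out nt replicate 2 ended all of them (0.0907 to 0.179), siBard1 replicate 1 all but *Hoxc8* (0.0799 to 0.145), and nt replicate 1 or siBard1 replicate 2 all but *Hoxa13* (0.0723 to 0.253).

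Markers of cell types moved with the knockdowns. The 10 fibroblast markers summed to 7754 and 8743 CPM in the nt control at day 3. They summed to 13693 to 14227 CPM in siWdr5, 11555 to 12707 in siBrca1 and 9646 to 11231 in siBard1. In siWdr5 8 of 10 rose (such as *Col1a1* and *Pdgfrb*) and 0 fell, against 18.3% and 16.8% of all genes. In siBrca1 5 rose and 1 (*Dcn*) fell, against 25.4% and 21.8%. In siBard1 0 rose and 1 (*Dcn*) fell, against 8.67% and 5.87%. There *Col1a1*, the largest part of the sum, stood at 4701 and 5581 CPM, against 3312 and 4043 in the nt control. Of the muscle markers *Des* was measured, at 30.5 to 39.9 CPM in the nt control and 139, 164 to 171 and 74.5 to 88.5 CPM in siWdr5, siBrca1 and siBard1. Macrophage and blood markers summed to 6.50 to 7.45 CPM in the nt control and to 11.3 to 13.4, 15.6 to 16.7 and 7.38 to 8.13 CPM in the knockdowns, with *Adgre1* at or under 3 reads in all but siBrca1. The 7 epithelial markers summed to 61.5 to 94.1 CPM in all libraries of day 3, but single members moved. In siWdr5 *Cdh1*, *Epcam* and *Krt8* fell and *Krt19* rose (median −0.74), in siBrca1 *Cdh1* and *Epcam* fell and *Krt18* and *Krt19* rose (median −0.85), and in siBard1 *Krt19* rose (median −0.38). *Des* rose in all 3, *Csf1r* rose in siWdr5 and siBrca1, and in siBrca1 *Cd68* also rose and *Tubb3* fell. The endothelial ones summed to 24.3 to 59.1, the neural crest and neural ones at 21.5 to 74.2, and the pluripotent ones at 0.133 to 1.65 CPM, with at least 5 of 7 at or under 3 reads. The part of these shifts in the Hox changes was not tested.

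The knockdowns were also compared with each other, without the nt control. Between siWdr5 and siBrca1, *Hoxd8* alone differed (15.7% of all genes did), at 5.98 and 6.64 CPM in siWdr5 against 9.95 and 13.7 in siBrca1, a log2 difference of −0.89 (SE 0.19, limma adjusted p = 0.00622), which did not pass without siWdr5 replicate 1 (0.0853). Between siWdr5 and siBard1, 7 genes were higher in siWdr5 (4.85% of all genes were), *Hoxb3*, *Hoxb5*, *Hoxb6*, *Hoxb9*, *Hoxc8*, *Hoxc9* and *Hoxc10*, by 0.46 to 0.94. None of these 7 passed without siWdr5 replicate 1, siWdr5 replicate 2 or siBard1 replicate 2, and 2 passed without siBard1 replicate 1 (limma adjusted p of those lost 0.0607 to 0.289). Between siBrca1 and siBard1, 8 genes were higher in siBrca1 (13.1% of all genes were), *Hoxb3*, *Hoxb4*, *Hoxb8*, *Hoxb9*, *Hoxc6*, *Hoxc8*, *Hoxc10* and *Hoxc11*, by 0.39 to 0.92, and *Hoxd13* was lower by 0.56 (8.33% of all genes were lower). All 9 were lost without siBard1 replicate 2, and 8 without siBard1 replicate 1 or siBrca1 replicate 2, with adjusted p from 0.0511 to 0.252, whereas leaving out siBrca1 replicate 1 lost *Hoxc11* alone (0.280).

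At day 6, 2 Hox genes rose in siWdr5, *Hoxb9* and *Hoxc10*. They were 6.06% of the 33 tested against 16.1% of all genes that rose, and none fell against 5.7% of all genes. Both exceeded the 2-fold rule, as did 3.33% of all genes upward. *Hoxb9* stood at 18.5 and 14.7 CPM in the nt control and 29.4 and 37.4 in siWdr5 (1.01, SE 0.28, limma adjusted p = 0.0303), and *Hoxc10* at 3.58 and 3.01 against 5.86 and 9.07 CPM (1.15, SE 0.30, limma adjusted p = 0.0248). For neither gene did the groups overlap, and 41.3% of all genes lay wholly above the control. The values of siWdr5 replicate 2 lay well above those of replicate 1. In that library 27 of the 33 genes were higher than in replicate 1, by a median of 0.26 log2 units against 0.09 over all genes. Both genes lost their call without it, or without either nt library (limma adjusted p 0.0781 to 0.223), and *Hoxb9* also without siWdr5 replicate 1 (0.0553). With the spread estimated from the 4 compared libraries alone, or from all 16, 6 genes passed. All 8 genes of cluster C had positive estimates (median 0.75), with *Hoxc6* at 17.6 and 17.8 CPM against 21.1 and 31.2, *Hoxc8* at 11.8 and 9.78 against 14.3 and 20.9, and *Hoxc9* at 3.02 and 2.61 against 3.93 and 7.27. The fibroblast markers summed to 5109 and 5335 CPM in the nt control and to 9246 and 12703 in siWdr5, with 5 of 10 higher. The 7 epithelial markers summed to 583 and 781 CPM in the nt control and to 401 and 518 in siWdr5, with *Cldn4*, *Cldn7*, *Epcam* and *Krt8* lower (median −0.80), the pluripotent ones to 126 to 132 against 31.8 to 109 CPM, and *Des* rose, from 13.6 to 16.5 CPM to 51.4 to 66.6. The part of these shifts was not tested.

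In siBrca1 at day 6 no Hox gene passed, nor did any gene of the table (0.0%). By limma 3 of the 33 Hox genes (9.09%, against 8.01% of all genes) had an unadjusted p below 0.05 (*Hoxb2* at −0.90, *Hoxd4* at −0.83 and *Hoxd13* at 0.38), and limma-voom also called none. Of the genes raised at day 3, *Hoxc8* stood at 13.8 and 12.4 CPM against 11.8 and 9.78, *Hoxc10* at 3.87 and 3.98 against 3.58 and 3.01, and *Hoxb8* at 4.65 and 4.52 against 5.41 and 5.0. *Hoxa13* stood at 7.25 and 11.9 against 6.93 and 5.24 CPM (0.62, SE 0.29, limma adjusted p = 0.629), and *Hoxb4* at 6.90 and 6.95 against 9.81 and 8.75 (−0.42, SE 0.25, limma adjusted p = 0.693).

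In siBard1 at day 6 no Hox gene passed, with 0.0784% of all genes higher and 0.0% lower. By limma 9 of 33 (27.3%, against 13.6% of all genes) had an unadjusted p below 0.05, and limma-voom called none. *Hoxd13* stood at 35.2 and 40.1 CPM against 20.5 and 19.0 in the nt control, 0.93 on the log2 scale (SE 0.16, limma adjusted p = 0.0593, from 0.0114 to 0.521 over the alternatives), and *Hoxa13* at 9.76 and 14.7 against 6.93 and 5.24 CPM (0.99, limma adjusted p = 0.209). Both were without overlap, as were 34.2% of all genes above the control and 17.4% below it. Of the 33 Hox genes 5 lay above and 8 below. *Hoxd13* passed with all 16 libraries in 1 fit (limma adjusted p = 0.0114) and under the replicate block (0.0409). Of the genes with an unadjusted p below 0.05, *Hoxa11*, *Hoxa13* and *Hoxd13* were above 0 and *Hoxa2*, *Hoxb2*, *Hoxb6*, *Hoxb7*, *Hoxb8* and *Hoxd4* below. By position, 0 of 5 anterior, 3 of 15 central and 11 of 13 posterior genes had estimates above 0. Medians were −0.60, −0.39 and 0.13. Genes are not replicates of each other, and this pattern was not tested. With groups 1 to 8 as one class, 3 of 20 were above 0. The 2 libraries differed in these genes, since 13 of the 14 genes of clusters B and C from group 4 on were lower in replicate 2, with a median difference of −0.65 log2 units against −0.01 over all genes, with *Hoxb9* at 23.3 and 12.9 CPM and *Hoxc8* at 16.6 and 9.13. In siBard1 at day 6 the fibroblast markers summed to 8066 to 8091 CPM (5109 to 5335 in the nt control), the epithelial ones to 403 to 525 (583 to 781) and the pluripotent ones to 152 to 230 (126 to 132). No member of these 3 lists passed, and their part was not tested.

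The change of each knockdown was tested for a difference between the days. For siBrca1, *Hoxb4*, *Hoxb8* and *Hoxd13* passed (20.5% of all genes did). *Hoxb4*, which acts in blood stem cells, stood at 8.45 and 8.80 CPM in the nt control and 10.9 and 15.3 in siBrca1 at day 3, and at 9.81 and 8.75 against 6.90 and 6.95 at day 6, so that its estimate turned from above to below the control. For siWdr5 no Hox gene passed (4.43% of all genes did), and limma-voom called none. There 1 of 33 Hox genes had an unadjusted p below 0.05 (3.03%, against 23.7% of all genes). For siBard1 none passed either (0.0499% of all genes did), also by limma-voom, and 5 of 33 had an unadjusted p below 0.05 (15.2%, against 19.2% of all genes). Over all genes the median of the siWdr5 difference was 0.12, and that of the Hox genes 0.02.

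From day 3 to day 6 of the nt control, cluster C had the largest share of genes that fell. The Hox sum stood at 225 and 224 CPM at day 3 and at 190 and 174 CPM at day 6. Mean sums went from 65.3 to 44.4 CPM in cluster C and from 59.6 to 48.4 in A. Those of D went from 45.1 to 36.1 and those of B from 54.5 to 52.9 CPM, none tested. Of the 33 genes 1 rose and 10 fell, which is 3.03% against 19.0% of all genes upward and 30.3% against 27.1% downward, the latter a share near the background. The falls were 5 of 8 genes of cluster C (62.5%), 4 of 11 of A (36.4%), 1 of 6 of D and 0 of 8 of B, and medians were −0.77, −0.55, −0.17 and 0.01, the last turning to −0.21 with quantile normalization, against −0.07 over all genes. By position 1 of 5 anterior, 4 of 15 central and 5 of 13 posterior genes fell.

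*Hoxc5* fell from 10.6 and 9.38 to 5.25 and 3.72 CPM (−1.17, SE 0.23, limma adjusted p = 0.000646), *Hoxa3*, a gene of the throat and neck, from 4.42 and 5.38 to 2.30 and 2.37 CPM (−1.07, SE 0.23, limma adjusted p = 0.00121), *Hoxc11* from 2.25 and 2.99 to 0.856 and 1.09 (−1.42, SE 0.38, limma adjusted p = 0.00602) and *Hoxa6* from 2.25 and 2.42 to 0.856 and 1.33 (−1.13, SE 0.36, limma adjusted p = 0.0168). These 4 changed by more than 2-fold (4.03% of all genes did so downward). *Hoxa7*, *Hoxa9*, *Hoxc4*, *Hoxc9*, *Hoxc10* and *Hoxd13* fell by 0.48 to 0.93, and *Hoxa11* rose by 0.57 (SE 0.18, limma adjusted p = 0.0189), from 4.62 and 4.93 to 7.57 and 6.60 CPM. Of the 7 tested noncoding transcripts of the clusters, 1 fell (27.1% of all genes did), *Hoxaas2*, which faces part of *Hoxa3* on the other strand. The Hox genes *Hoxa3* and *Hoxc5* passed under every alternative fitted to them. Without nt day 3 replicate 2 all but *Hoxa3*, *Hoxc5* and *Hoxc9* lost their call, without day 3 replicate 1 *Hoxa6*, *Hoxa9*, *Hoxa11*, *Hoxc4*, *Hoxc9* and *Hoxd13*, without day 6 replicate 1 *Hoxa6*, *Hoxa9*, *Hoxa11*, *Hoxc11* and *Hoxd13*, and without day 6 replicate 2 *Hoxa7*, *Hoxa9*, *Hoxc4*, *Hoxc9*, *Hoxc10* and *Hoxd13* (limma adjusted p 0.0528 to 0.201). The epithelial markers went from 74.4 and 94.1 to 583 and 781 CPM and the pluripotent ones from 0.570 and 1.65 to 126 and 132. The fibroblast markers did not move together. Their sum went from 7754 and 8743 to 5109 and 5335 CPM, but their median log2 change was 0.76. *Dcn*, *Lum*, *Pdgfra*, *Thy1* and *Twist2* rose (5 of 10, against 19.0% of all genes). *Col1a1*, *Col1a2* and *Vim* fell (3 of 10, against 27.1%). The part of these markers in the Hox changes was not tested.

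Of the 5 genes under the filter, tested over all 18990 rows, *Hoxb1*, an early hindbrain gene that answers to retinoic acid, went from 0 and 1 reads in the nt control at day 3 to 7 and 15 reads at day 6 (limma adjusted p = 0.000386), and stood at 0 reads in the 6 knockdown libraries of day 3. At day 6 it had 2 and 6 reads in siWdr5 (limma adjusted p = 0.0474 against the nt control), 3 and 7 in siBrca1 and 4 and 4 in siBard1. *Hoxc12* passed in siWdr5 (limma adjusted p = 0.0201) and siBrca1 (0.0111) at day 3, and *Hoxd12* was lower in siWdr5 than in siBrca1 (0.0205), at 0.447 and 0.535 against 1.39 and 1.89 CPM. *Hoxb13* and *Hoxd3* passed in none of these. No fold is given at so few reads.

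The partners and regulators of Hox genes were read as lists. Of all genes tested at day 3, 18.3% rose and 16.8% fell in siWdr5, 25.4% and 21.8% in siBrca1 and 8.67% and 5.87% in siBard1, and the counts of each list stand beside these shares. Among the TALE cofactors, homeodomain proteins that bind DNA with HOX proteins, *Pknox2* rose in siWdr5 (0.57 at day 3 and 1.45 at day 6), *Meis3* (0.91) and *Pbx2* (0.49) rose and *Pknox1* fell (−0.55) in siBrca1, and list medians at day 3 lay between 0.01 and 0.16. Of 8 tested regulators of the caudal and retinoic acid pathways, 3 rose and 3 fell in siWdr5 and in siBrca1. *Gdf11*, a signal that sets the trunk to tail transition, rose by 0.78, 1.13 and 0.50 in siWdr5, siBrca1 and siBard1, *Rara* rose in the first 2 (0.74 and 0.60), and *Crabp1* fell in each (−0.73, −0.63 and −0.67).

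Of 25 trithorax and Polycomb factors, 2 rose and 9 fell in siWdr5, 2 rose and 12 fell in siBrca1 and 0 rose and 6 fell in siBard1 at day 3, with medians of −0.20, −0.26 and −0.16. Among them the Polycomb subunits *Ezh2* (−0.39 and −0.80), *Suz12* (−0.55 and −0.69) and *Phc1* (−0.69 and −0.42) fell in siWdr5 and siBrca1, as did *Dpy30* (−1.06 and −1.52), which works in the same trithorax complexes as WDR5, while *Kmt2a*, the methyltransferase of one of them, rose in siWdr5 (0.30 at day 3 and 0.41 at day 6). The list holds *Wdr5*, the target of one of the siRNAs. Of 7 tested noncoding transcripts of the clusters, *Hoxd3os1* fell in siBrca1 (−0.96, SE 0.34, limma adjusted p = 0.0329) and none passed in siWdr5 or siBard1 at day 3, where their medians were 0.33 and −0.06.

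Of 17 tested genes that flank the clusters, 1 rose and 4 fell in siWdr5, 2 rose and 5 fell in siBrca1 and 0 rose and 3 fell in siBard1 at day 3. *Cbx1* beside cluster B (−0.56, −0.66 and −0.42) and *Hnrnpa1* beside cluster C (−0.62, −0.85 and −0.41) fell in all 3, and *Calcoco1* beside cluster C rose in siWdr5 (0.55) and siBrca1 (0.95). Medians of this list were −0.22, −0.28 and −0.08.

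Among 18 tested homeobox and T-box genes that mark limb and trunk position outside the clusters, 11 rose and 0 fell in siWdr5, 12 rose and 1 fell in siBrca1 and 7 rose and 0 fell in siBard1 at day 3, and 10 rose in siWdr5 at day 6, where 16.1% of all genes rose. Their medians at day 3 were 0.60, 0.60 and 0.37. *Prrx1* and *Prrx2*, regulators of limb mesenchyme, rose by 0.61 and 0.89 in siWdr5, 1.05 and 1.10 in siBrca1 and 0.63 and 0.45 in siBard1, and *Msx2* by 1.06, 1.85 and 1.22. *Shox2*, *Tbx3* and *En1* rose by 0.70, 1.06 and 0.60 in siWdr5, and *Gli3* was the gene that fell in siBrca1 (−0.27). At day 6 *Msx1* alone of this list rose in siBard1, where 0.0784% of all genes rose (1.51, SE 0.19, limma adjusted p = 0.0252).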

How the data were processed

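The log2 CPM values of 16 libraries were used as deposited. The authors aligned paired-end reads with STAR 2.5.2b to mm10 and made log-CPM values with edgeR 3.20.9. The read counter, strand setting, annotation and filter are not given in the sources used here. CPM is 2 to the power of the deposited value, and the recovered values lay within 0.05 of a whole read in 100% of entries, which gave the reads per library.

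The 14028 of 18990 rows whose log2 CPM averaged 0 or more across the libraries were fitted with limma 3.58.1 (R 4.3.3), with a variance trend, per day for knockdown comparisons and over all groups for comparisons across days, two-sided, with Benjamini-Hochberg adjustment over all genes tested. The script was tested on simulated data. Replicates are named as independent experiments by the study, and p-values measure the spread between 2 libraries per group. Alternatives were other pseudocounts, filters, scalings, sample sets, limma-voom on the recovered reads, a replicate block and leaving out each library. The edgeR and DESeq2 tests were not run. The SEs come from the limma fits and the SDs from the 2 libraries of a group, so both hold the spread between libraries. The floor of 3 reads covers counting error only.

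Each member is accounted for, and values in every library are given for the members with the largest changes among those passing at day 3 (12), those passing at day 6, the 4 highest and the siRNA targets. Members, lists and tests were chosen with earlier results of these data known. The single values of some genes are not reported here, while sums and counts include them. Promoters and microRNAs are from RefSeq (GRCm38.p6), gene spans from GENCODE vM21 (mm10), in which 18969 identifiers were found.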

Additional observations from a re-analysis of the deposited data

Results flagged for a closer look

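The siBrca1 change of *Hoxb4*, *Hoxb8* and *Hoxd13* differed between day 3 and day 6 by an interaction test (limma, adjusted over all genes). *Hoxb4* changed by 0.58 at day 3 and its day 6 change stood −1.0 from that on the log2 scale (SE 0.32, limma adjusted p = 0.0373, 0.0132 to 0.179 over the alternatives). *Hoxb8* changed by 0.97 at day 3, with a difference of −1.15 (SE 0.34, limma adjusted p = 0.0267, 0.0212 to 0.137), and its nt control libraries of day 3 lay apart, at 5.41 and 3.22 CPM. *Hoxd13* fell at day 3 by 0.60 and lay above the control at day 6, at 22.6 and 29.5 against 20.5 and 19.0 CPM, with a difference of 0.99 (SE 0.23, limma adjusted p = 0.00971, 0.00217 to 0.057). Leaving out siBrca1 day 3 replicate 2 ended all 3 calls (limma adjusted p 0.057 to 0.179). *Hoxb4* was also lost without either nt library of either day and without either siBrca1 library of day 6, and *Hoxb8* without nt day 3 replicate 2, either nt library of day 6 and siBrca1 day 6 replicate 2.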

How the results depend on the processing

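Over single Hox genes, 6250 values under the alternatives kept direction and side of the threshold, 207 lost and 73 gained a call, and none reversed. With the 2-fold rule the numbers of Hox genes called fell to 1 in each knockdown at day 3, 4 from day 3 to day 6 of the nt control, and 0 between siWdr5 and siBrca1, siWdr5 and siBard1, and siBrca1 and siBard1. Without a filter they were 3 in siBard1 at day 3 and 2, 3 and 2 between the knockdowns in that order. With all 16 libraries in 1 fit they were 2 in siBard1 at day 3, 6 in siWdr5 and 1 in siBard1 at day 6, 2 between siWdr5 and siBard1 and 4 between siBrca1 and siBard1. With the compared libraries alone they were 6 in siWdr5 at day 6, 1 for the siBard1 difference between days, 11 between siWdr5 and siBard1 and 1 between siBrca1 and siBard1. Quantile normalization gave 1 in siWdr5 at day 6, and a fit without the variance trend gave 2 between siWdr5 and siBrca1 and 0 between siBrca1 and siBard1. The cause was not tested.

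Leaving out 1 library at a time gave 5 to 7 calls in siWdr5 (10 with all libraries), 6 to 12 in siBrca1 (11) and 0 to 1 in siBard1 (5) at day 3, 0 to 2 in siWdr5 at day 6 (2), 3 to 6 from day 3 to day 6 (11), 0 to 5 for the siBrca1 difference between days (3), 0 to 3 between siWdr5 and siBrca1 (1), 0 to 2 between siWdr5 and siBard1 (7) and 0 to 14 between siBrca1 and siBard1 (9). These fits have fewer samples.

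Replicate numbers were not taken as pairs, which would have needed a correlation over 0.1 between same-numbered libraries in every pair of groups. These ran from −0.09 to 0.07 at day 3 (0 of 6 over 0.1) and from −0.07 to 0.26 at day 6 (3 of 6). With the replicate block 10, 11 and 5 Hox genes passed in siWdr5, siBrca1 and siBard1 at day 3, 3, 0 and 1 (*Hoxd13*) at day 6 (2, 0 and 0 without it), and 11 in the nt control over time. With 2 libraries per group and genes of few reads, small differences were not detectable at this depth.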
